A study of Mus musculus with 4 samples.

Results

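CTCF sites at promoters of single protein-coding genes were described in hippocampal tissue of adult male B6CASTF1/J mice, with the side of the transcription start site (TSS) on which each site lay as the main comparison. A site was taken when its summit, the point of highest signal in a peak, lay within 1 kb of the TSS of a protein-coding gene on an autosome, in the deposited list of peaks kept at 0.05 on the irreproducible discovery rate (IDR) between both replicates. IDR is estimated from how far the rank of a peak recurs in another set. Summits within 1 kb of both TSSs of a divergent protein-coding pair under 1 kb apart were left out, which removed 605. The rule left 8831 of the 88071 autosomal peaks, or of 90278 peaks in all. Of these summits 4996 lay upstream of the nearest protein-coding TSS and 3835 lay downstream of it, with 14 summits exactly at a TSS counted as downstream. Beyond the threshold of the list, which rests on the ranks of peak signals, neither signal nor sequence was used to choose the sites.

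The mice were 2 months old and were F1 hybrids, with C57BL/6J and CAST/EiJ parents, so each autosome was present in 1 copy of each parental strain, and the deposited peaks do not separate the alleles. ChIP-seq for CTCF gave 4 libraries in 2 biological replicates, each a pool of 7 tissue biosamples with 2 technical libraries and 1 joint alignment. There was no treated and no control group. Both pools carry the same donor entry, and nothing in the labels says that their animals were separate, so the spread between replicates may be partly technical. The tissue holds neurons and glia together, and a site in few cells cannot be told apart from weak binding in many. Expression was not measured, so the labelled tissue was not checked against marker genes. The read depth is unknown; intervals below are exact 95% intervals for counted summits or genes and cover counting error only.

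CTCF is a DNA-binding protein with a row of zinc fingers that reads a long, asymmetric recognition sequence. Sites where it meets cohesin, the ring-shaped complex that extrudes chromatin loops, act as loop anchors and as insulators between enhancers and genes, and the direction of the recognition sequence influences the side from which cohesin is stopped. CTCF also binds many promoters, where it can hold an enhancer near the start of a gene, and methylation of CpG sites within the recognition sequence can reduce its binding.

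The recognition sequence of the strongest promoter sites shows how position and direction were read. These are the 3 strongest upstream sites that held a match to the CTCF consensus of 12 bases with at most 1 mismatch within 50 bp of the summit, each on the strand of its gene from 20 bases before the match to the last base before the TSS. Capitals mark the match with the fewest mismatches. Bases are those of the GRCm38 reference, which is C57BL/6J, so the CAST/EiJ allele is not shown.
Lsm11, chr11:45944936-45945058, minus strand: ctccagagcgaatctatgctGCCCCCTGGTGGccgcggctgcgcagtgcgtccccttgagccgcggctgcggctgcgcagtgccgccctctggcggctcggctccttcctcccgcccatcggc
Alkbh2, chr5:114128219-114128290, minus strand: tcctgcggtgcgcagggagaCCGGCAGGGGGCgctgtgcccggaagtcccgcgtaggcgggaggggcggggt
Wdr70, chr15:8099210-8099307, minus strand: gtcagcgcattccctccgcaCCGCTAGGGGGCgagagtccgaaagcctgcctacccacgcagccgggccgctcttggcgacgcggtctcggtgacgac
The matches at Alkbh2 and Wdr70 read in gene direction, that is, on the strand of the gene. At Lsm11 the match has no mismatch and lies on the other strand, so the printed strand shows its reverse complement.

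Downstream of the TSS the strongest site with a match was that of Epc1, which had 1 mismatch, read in gene direction and is not printed. The next were those of Ccdc110, Src and E130311K13Rik, shown as 30 bases on the gene's strand with the match in capitals.
Ccdc110, chr8:45934942-45934971, plus strand: tcatagcgcGCCCTCTGGTGGccacagagg
Src, chr2:157457612-157457641, plus strand: cgcccctgcGCCCTCTGCTGGcgctgtgtg
E130311K13Rik, chr3:63929390-63929419, minus strand: ccctaccgcCCACCAGGGGGCgcccgcaag
These 3 matches are without mismatch. Those in the introns of Ccdc110 and Src read against the gene, and that in the 5′ untranslated exon of E130311K13Rik reads with it. For comparison on the strand of the match itself, 20 bases are given of 2 sites within 50 bp of a TSS, Nudt17 and Ube2cbp, of Nipsnap2, an upstream site that reads against its gene, and of Zfp786, a downstream site that reads with it.
Nudt17, chr3:96708562-96708581, minus strand: tgggCCACCAGGGGGCgcca
Ube2cbp, chr9:86464959-86464978, minus strand: cttcCCGGTAGGTGGCgctc
Nipsnap2, chr5:129724959-129724978, minus strand: gctgCCGCCAGGGGGCgtgc
Zfp786, chr6:47830580-47830599, minus strand: cctgCCCGCAGGGGGCgctg

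Taken over all sites, CTCF summits lay upstream of the TSS more often than downstream of it. Upstream summits made up 56.6% of the 8831 (interval 55.5 to 57.6; two-sided exact binomial test against an equal split, adjusted p = 8.43e-35). P-values of the 4 main tests were adjusted together by the Benjamini-Hochberg method. In each alternative, such as a quartile of signal, the same 4 tests were adjusted within that alternative and not across alternatives. The upstream share was above 50% on 19 of 19 autosomes, between 51.3% and 61.9%. The excess was found among the stronger sites; the difference between quartiles was not tested. With all sites split into quartiles of peak signal, an alternative added after the data had been seen, 1585 of 2208 sites in the strongest quartile lay upstream, 71.8% (exact binomial test, adjusted p = 1.81e-95), and 1206 of 2208 in the next, 54.6% (adjusted p = 3.08e-05). In the lower quartiles the share missed the threshold of the exact binomial test: 1124 of 2207 lay upstream in the second, 50.9% (adjusted p = 0.526), and in the weakest the direction turned, with 1081 of 2208 upstream, 49.0% (adjusted p = 0.451). For 8060 sites, 91.3%, every protein-coding TSS within 1 kb lay on the same side of the summit. Only the 3737 sites with several such TSSs could have them on both sides. Summits of 1 gene are not independent, so these p-values cover counting only.

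Over the whole set, most of the excess lay within 200 bp of the TSS, a limit chosen after the profile had been seen. There 2524 summits lay upstream and 1491 downstream, against 2472 and 2344 farther out. The 100 bp directly upstream held 1527 summits, 17.3% of the total, and the 100 bp from the TSS onward held 952, 10.8%. The next 100 bp on either side held 997 summits upstream and 539 downstream. Beyond about 500 bp the sides were closer, with 191 summits in the outermost 100 bp upstream and 240 in the outermost 100 bp downstream. The median upstream distance was 197 bp and the median downstream distance 304 bp. In the strongest quartile of signal the excess also reached farther out. There the 694 upstream sites beyond 200 bp alone outnumbered the 623 downstream sites at any distance.

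**Figure D1:**
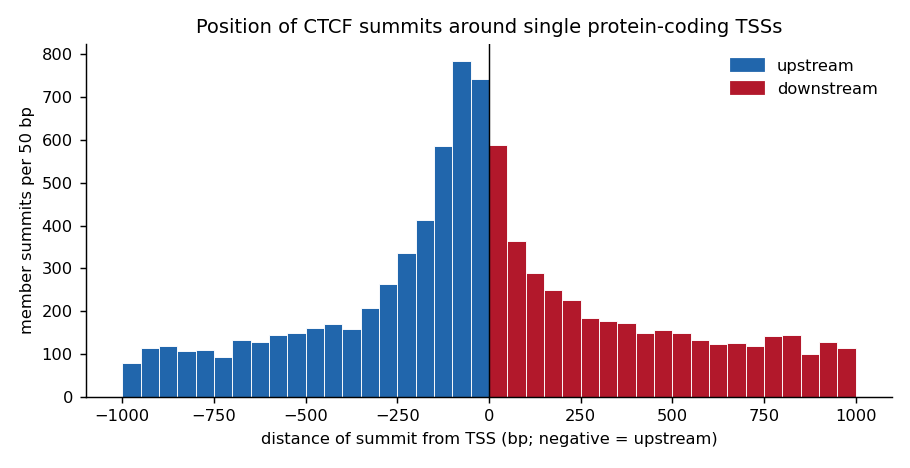
Number of CTCF summits per 50 bp (y axis) by signed distance from the nearest protein-coding TSS in bp (x axis), upstream bars left of 0 and downstream bars right of it. The counts peak within 100 bp upstream, where 1527 summits lie, against 952 in the first 100 bp downstream.

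The limit of 1 kb cut through a continuous range of sites. Just inside it, the upstream summits of Oxt and Togaram2 at 1000 bp had signals of 91.9 and 82.6, and the downstream summits of Nif3l1 and Tmem229a at 1000 bp had 113 and 247. Just outside, at 1001 bp, the upstream summits of Gm11042 and Scarb2 had 18.8 and 446, and the downstream summits of Fam186b and Fbxw4 had 116 and 176. The signal is the score of the authors' peak caller on the pooled reads of both replicates. Its scale is not stated, so it is used here to rank sites within the list.

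Upstream sites carried more signal than downstream sites. The median signal was 197 upstream and 133 downstream, 1.49 times as high. In replicate 1 the medians were 99.9 upstream and 66.6 downstream, 1.5 times as high, and in replicate 2 they were 104 and 70.8, 1.47 times as high. The upstream median was the higher of the pair on 19 of 19 autosomes in each replicate. The middle 50% of signals overlapped widely, from 93.9 to 531 upstream and from 79.3 to 287 downstream. The strongest quartile, above 408, held 31.7% of the upstream sites and 16.2% of the downstream sites.

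Signal followed distance as well as side. Within 100 bp upstream the median was 228, against 130 in the first 100 bp downstream and 102 in the next 100 bp, the lowest of any 100-bp step. Between 301 and 400 bp upstream it was 144, and beyond 500 bp upstream it was again 165 to 208. Both replicates gave the same drop across the TSS, with medians of 115 and 120 within 100 bp upstream and 65.9 and 68.8 within 100 bp downstream. The log2 signals of the replicates were correlated over these sites at a Pearson r of 0.95 upstream and 0.94 downstream; IDR is computed from these same signals, and peaks are not replicates, so no p-value is given.

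The 8 strongest upstream sites lay between 53 and 290 bp from the TSS. Sh3glb1, which encodes a membrane-bending protein of the endophilin family, had a signal of 480 in replicate 1 and 491 in replicate 2 at 216 bp upstream. Disp3, a dispatched-family membrane protein, had 469 and 478 at 290 bp. Lsm11, a component of the particle that processes histone transcripts, had 447 and 488 at 71 bp. These replicate values were more than 4 times the replicate medians of all upstream sites.

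Alkbh2, an enzyme that repairs alkylated DNA, had signals of 453 in replicate 1 and 476 in replicate 2 at 58 bp upstream. Wdr70, a WD-repeat protein, had 446 and 482 at 77 bp, and Nipsnap2, a mitochondrial protein, had 442 and 479 at 73 bp. Ndufc1, a subunit of respiratory complex I, had 447 and 475 at 53 bp, and Erlin2, a protein of the endoplasmic reticulum, had 450.5 and 474 at 140 bp. All 8 summits lay outside the transcripts of their own gene. In each, replicate 2 was the higher, as it was in 70.1% of all upstream sites.

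Downstream, the strongest site was that of Grm4, a metabotropic glutamate receptor, with signals of 441 in replicate 1 and 479 in replicate 2 at 631 bp into an intron. Epc1, a subunit of a histone acetyltransferase complex, had 451 and 462 at 811 bp in an intron. Ccdc110, a coiled-coil protein, had 447 and 457 at 306 bp, and Src, a tyrosine kinase, had 448 and 453 at 533 bp, both in introns. The other 4 summits lay in 5′ untranslated exons.

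Those were the sites of Mrps16, a protein of the mitochondrial ribosome, with signals of 439 and 462 at 67 bp, and of Abca14, an ABC transporter, with 446 and 456 at 34 bp. E130311K13Rik had 449 and 438 at 75 bp, and Zfp786, a zinc-finger protein, had 444 and 440.3 at 284 bp. The 8 downstream summits ranged from 34 to 811 bp from the TSS, the 8 upstream ones from 53 to 290 bp. At the very top the signals of the sides were close, from 920.03 to 964 upstream and from 884 to 915 downstream on the pooled reads.

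**Figure D2:**
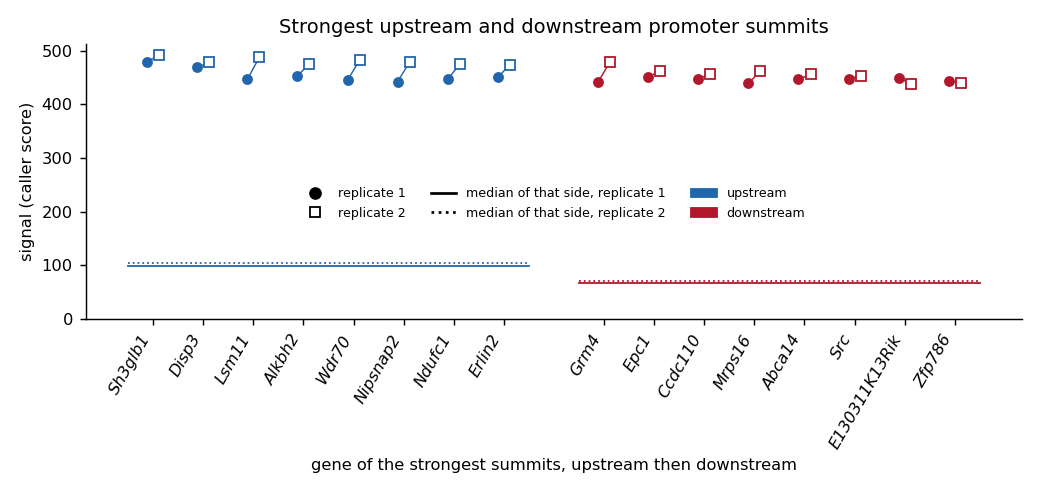
Signal (y axis, caller score) in replicate 1 (filled circles) and replicate 2 (open squares) of the 8 strongest upstream sites, left, and the 8 strongest downstream sites, right, with the median of each side in each replicate as lines. Every named site lies between 438 and 491, while the side medians are 99.9 and 104 upstream and 66.6 and 70.8 downstream.

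Within 50 bp of a TSS lay 1336 sites, and the 3 strongest of them are named here. Ube2cbp, a ubiquitin ligase, had signals of 456 in replicate 1 and 465 in replicate 2 at 26 bp upstream. Nudt17, a Nudix hydrolase, had 455 and 465 at 13 bp upstream. Rcc1, the exchange factor of the GTPase Ran, had 429 and 488 at 31 bp upstream, within an intron of another isoform. At the other end of the range, the weakest upstream site was at Psmf1, a proteasome inhibitor, with a pooled signal of 13.6.

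The CTCF consensus was present at more upstream than downstream sites. A match with at most 1 mismatch on either strand lay within 50 bp of 1268 of 4996 upstream summits, 25.4% (24.2 to 26.6), and of 611 of 3835 downstream summits, 15.9% (14.8 to 17.1). The difference was 9.45 percentage points (Newcombe 95% interval 7.77 to 11.1; two-sided Fisher's exact test, adjusted p = 2.87e-27), and upstream was the higher on 18 of 19 autosomes. A match without mismatch was found at 4.58% of upstream and 2.84% of downstream sites, a smaller difference of 1.74 points. With up to 2 mismatches the shares were 52.9% upstream and 46.3% downstream.

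Part of this gap went with signal. In the weakest quartile of signal 8.23% of upstream and 6.74% of downstream sites held a match, a difference of 1.49 points that did not pass Fisher's exact test (adjusted p = 0.391). In the second quartile the shares were 15.8% upstream and 10.4% downstream, and in the next 23% and 17.4%. In the strongest quartile 45.7% of upstream and 39.8% of downstream sites held a match, 5.87 points apart (Fisher's exact test, adjusted p = 0.0132). Within quartiles the difference was thus smaller than over all sites.

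Sites close to the TSS held the fewest matches. The share was 42.9% to 44.9% in the 3 outermost 100-bp steps upstream, 15.5% between 201 and 300 bp upstream and 20.6% in the last 100 bp before the TSS. It was 8.19% in the first 100 bp of the gene, the lowest of any step, and 30.4% in the outermost 100 bp downstream. Base composition changed along the same axis: the median GC content within 100 bp of the summit was 47.3% in the outermost upstream step, 63.7% in the last 100 bp before the TSS, 68.7% between 100 and 199 bp downstream and 53.5% in the outermost downstream step. The part of composition in the share of matches was not tested.

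**Figure D3:**
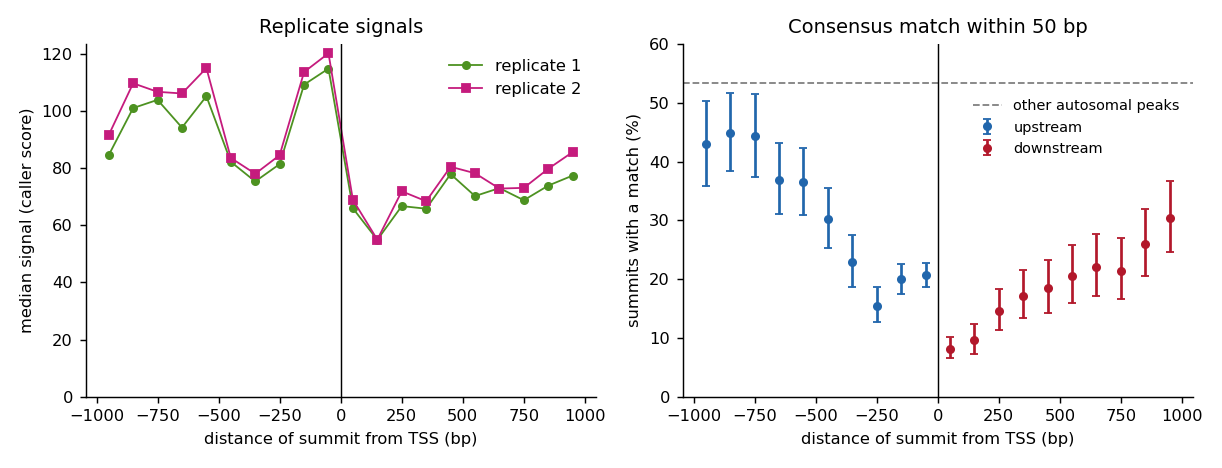
Left, median signal (caller score) of the summits in each 100-bp step from the TSS, in replicate 1 (circles) and replicate 2 (squares). Right, share of summits in % with a consensus match within 50 bp, with exact 95% intervals, upstream then downstream, and the share of other autosomal peaks as a dashed line at 53.3%. Both panels drop across the TSS: in replicate 1 the median is 115 in the last 100 bp before it and 65.9 in the first 100 bp after it, and the share of matches is 20.6% before it and 8.19% after it.

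Compared with the other autosomal peaks, promoter sites had few consensus matches. Of the 8831 promoter sites 1879 held a match, 21.3% (20.4 to 22.1), against 42273 of 79240 other sites, 53.3% (53.0 to 53.7). The difference of -32.1 percentage points (Newcombe 95% interval -33.0 to -31.1) had a two-sided Fisher's exact p below the smallest number the software represents, and it had the same direction on 19 of 19 autosomes. With exact matches the difference was -6.85 points. Median signals differed less, at 161 for promoter sites and 165 for the others. GC content was 61.2% at promoter sites and 45.8% at other sites, and the ratio of observed to expected CpG was 0.67 and 0.19. At the divergent pairs that were left out, 57 of 605 summits, 9.42%, held a match, and their median signal of 133 was that of the downstream sites.

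Over all sites, consensus matches pointed along the gene more often upstream of the TSS than downstream of it. Among sites whose matches lay on 1 strand, 731 of 1245 upstream sites, 58.7% (55.9 to 61.5), had the match in gene direction, and 299 of 598 downstream sites did, 50% (45.9 to 54.1). The difference was 8.71 percentage points (Newcombe 95% interval 3.86 to 13.5; two-sided Fisher's exact test, adjusted p = 0.000452), with upstream the higher on 13 of 19 autosomes. With exact matches alone it was 19.7 points. Quartiles of signal, added after the data had been seen to the comparison, gave a difference past the test among the strongest sites alone. In the strongest quartile 65.0% of upstream and 47.5% of downstream matches read in gene direction, 17.5 points apart (Fisher's exact test, adjusted p = 3.73e-06). In the other quartiles it did not pass the test and in 2 of them it reversed: the shares were 52.4% upstream and 53.2% downstream in the next (Fisher's exact test, adjusted p = 0.922), 45.5% and 48.2% in the one below (adjusted p = 0.716) and 55.1% and 53.3% in the weakest (adjusted p = 0.876). Motif direction and signal went together upstream: sites with a match in gene direction had a median signal of 571 (277 in replicate 1, 292 in replicate 2), and those with a match against it had 389 (194 and 205). Downstream the medians were 274 in gene direction and 314 against it. Upstream matches in gene direction also lay closer to the TSS, at a median position of -232.5 bp, and those against it at -446.5 bp. In each 20-bp step of the last 100 bp, median signal was higher in gene direction. From 300 to 100 bp upstream the order varied, with 606 in gene direction and 617 against it at 300 to 280 bp, and 639 and 489 at 120 to 100 bp. The part of distance in the gap was not tested.

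By 100-bp steps the share in gene direction was 69.7% in the last 100 bp before the TSS. It is given here for sites within 200 bp, a limit chosen after the profile had been seen, so these shares are described without a test. Within 200 bp upstream 344 of 505 matches, 68.1% (63.9 to 72.2), read in gene direction, and farther upstream 387 of 740 did, 52.3% (48.6 to 55.9). Within 200 bp downstream it was 65 of 129, 50.4% (41.5 to 59.3), made up of 46 of 77 in the first 100 bp, 59.7% (47.9 to 70.8), and 19 of 52 in the next 100 bp, 36.5% (23.6 to 51). In the strongest quartile of signal the share within 200 bp upstream was 260 of 358, 72.6% (67.7 to 77.2). It was 50 of 86, 58.1% (47 to 68.7), in the next quartile and 24 of 40, 60% (43.3 to 75.1), in the one below. In the weakest quartile it was 10 of 21, 47.6% (25.7 to 70.2). Below the strongest quartile matches were fewer, and the intervals were wide and included 50%. By the position of the match itself, the share was 75.3%, 75.6% and 79.7% in the 3 steps of 20 bp between 100 and 40 bp upstream. Farther upstream it was 20 of 40, 50% (33.8 to 66.2), at 120 to 100 bp. In the steps between 200 and 120 bp it was 61.7% to 67.7%, and in those between 300 and 200 bp 36.4% to 72.2%. Nearer the TSS it was 63.5% (49.0 to 76.4) at 40 to 20 bp and 52.1% (37.2 to 66.7) in the last 20 bp. In the first 20 bp after the TSS it was 15 of 19, 78.9% (54.4 to 93.9), and in the next 20 bp 10 of 15, 66.7% (38.4 to 88.2). High shares were thus found on both sides of the TSS, with few matches after it and a lower share, of wide interval, just before it.

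The reference sequence of all promoters gives the background to these shares. At the first TSS of each of the 20720 autosomal protein-coding genes, windows of the same length, centred 50 bp upstream, held a match at 2.17% of genes, against 1.06% for windows centred 50 bp downstream. Over all these genes, those with a promoter site included, 285 of 443 matches centred 50 bp upstream, 64.3% (59.7 to 68.8), read in gene direction. In genes with no summit of the list within 1 kb of any TSS, 55 of 99 such matches, 55.6% (45.2 to 65.5), read in gene direction. In genes with a promoter site 220 of 323 did, 68.1% (62.7 to 73.2).

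Read the other way, matches just upstream of the TSS that pointed along the gene held a CTCF summit more often than those that pointed against it. In windows centred 50 bp upstream a summit was present at 178 of 285 matches in gene direction, 62.5% (56.6 to 68.1), at 72 of 158 matches against it, 45.6% (37.6 to 53.7), and at 5.21% of promoters with no match. In windows centred 50 bp downstream it was 34 of 105 in gene direction, 32.4% (23.6 to 42.2), 29 of 114 against it, 25.4% (17.7 to 34.4), and 4.27% with no match. In windows centred 150 bp upstream it was 83 of 166 in gene direction, 50% (42.2 to 57.8), and 50 of 124 against it, 40.3% (31.6 to 49.5). In those centred 150 bp downstream it was 17 of 76 in gene direction, 22.4% (13.6 to 33.4), and 27 of 121 against it, 22.3% (15.2 to 30.8). The intervals of the directions were apart at 50 bp upstream and overlapped at the other 3 positions; no test was made. At 50 bp, in either direction, the interval upstream lay above that downstream.

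**Figure D4:**
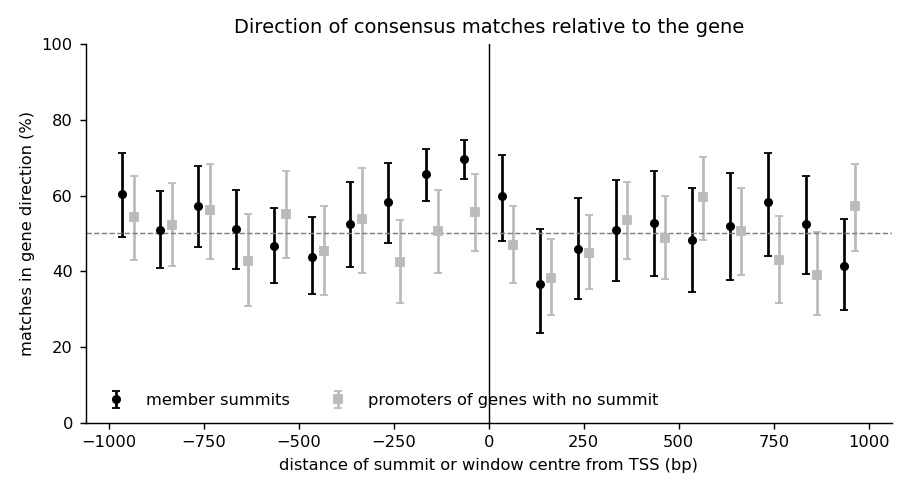
Share in % of consensus matches that read in gene direction (y axis), by distance from the TSS in bp (x axis), with exact 95% intervals. Black circles are CTCF summits in 100-bp steps, and grey squares are windows at the same distances in genes with no summit. The summits reach 69.7% in the last 100 bp before the TSS, where the grey value is 55.6%. The value there over all genes, 64.3%, is not drawn.

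The sequence around the summit differed between the sides in step with gene structure. Upstream, 4146 summits (83.0%) lay outside the transcripts of their gene, 591 in an intron and 242 in a 5′ untranslated exon of another isoform. Downstream, 1769 summits (46.1%) lay in introns, 1366 (35.6%) in 5′ untranslated exons and 677 (17.7%) in coding exons. Matches were found at 20.7% of the downstream intron sites, 15.8% of those in coding exons and 9.22% of those in 5′ untranslated exons. Median GC content was 58.7% upstream and 64.2% downstream, and the ratio of observed to expected CpG was 0.64 and 0.72. TSSs of genes that are not protein-coding lay within 1 kb of 663 upstream and 509 downstream sites, 13.3% of each.

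By gene, 6996 of 20720 autosomal protein-coding genes (33.8%) had a promoter site, 4470 (21.6%) had one upstream and 3453 (16.7%) had one downstream. An upstream site alone was present at 3543 genes, a downstream site alone at 2526 and both at 927. A single summit was the rule, at 5441 genes, while 1321 genes had 2, 190 had 3, 42 had 4 and 2 had 5. These counts can include several summits of the same peak, as 647 sites shared peak coordinates with another site. Neighbouring summits of a gene were a median of 754 bp apart.

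In the 927 genes with sites on both sides, the strongest upstream summit exceeded the strongest downstream one in 550, 59.3% (56.1 to 62.5), with medians of 204 upstream and 135 downstream. The sides were taken over all TSSs of a gene, so its upstream and downstream sites can belong to different TSSs. The upstream summit was the stronger in 514 of these genes in replicate 1 and in 532 in replicate 2. Otos, a gene of the inner ear, had signals of 364 and 388 at 114 bp upstream and 393 and 396 at 864 bp downstream. Kif26a, a kinesin-family gene, had 398 and 424 at 838 bp upstream and 358 and 390 at 302 bp downstream. In Otos the upstream match read against the gene and the downstream match with it, and in Kif26a the upstream match read with the gene and the downstream match against it.

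Pop7, a subunit of ribonuclease P, had signals of 410 and 396 at 500 bp upstream and 357 and 378 at 288 bp downstream of another TSS. Upf3a, of the nonsense-mediated decay pathway, had 355 and 362 at 88 bp upstream and 353 and 362 at 607 bp downstream, and both of its matches read against the gene. Plec, which encodes the cytoskeletal linker plectin, had 340 and 386 at 592 bp upstream. Its strongest of 3 downstream sites had 343 and 352, at 378 bp from a different TSS of the gene. These 5 genes were chosen for strong sites on both sides, so that their strongest signals lie above the side medians follows from the choice.

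The most summits, 5 each, were found at Fam19a5, a secreted protein of the brain, and at Myc, the growth-control transcription factor. Fam19a5 had 1 site 243 bp upstream, with signals of 167 in replicate 1 and 153 in replicate 2, and 4 downstream. Those at 544 and 746 bp go with the same TSS, in overlapping peaks that share replicate signals of 26.1 and 27.3. Those at 392 and 601 bp go with another TSS farther along the gene. Their overlapping peaks share replicate signals of 383 and 402, with pooled signals of 33.9 and 782. Myc had 3 sites upstream of the TSS nearest to each, the strongest at 299 bp with 179 and 208. It had 2 downstream, the strongest at 20 bp with 230 and 248, and its sites go with several TSSs. The site at 20 bp downstream and the one at 134 bp upstream have the same peak coordinates, with pooled signals of 475 and 47.9. None of the 10 summits held a consensus match. Plec followed, as the gene with the highest summed signal among those with 4 summits.

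Gene lists were compared with the shares of all autosomal protein-coding genes, 33.8% with a site, 21.6% upstream and 16.7% downstream; these are counts, without a test. A gene counted as without a site can still have a summit at a divergent pair, which was left out, or one nearer to the TSS of another gene. Such a left-out summit was present at 10 of the 44 mitochondrial ribosomal genes counted as without a site, 6 of 36 cytosolic ribosomal genes and 3 of 9 cohesin and architectural genes, at up to 8 genes of each of the other large or housekeeping families and at no gene of the neuronal and glial lists. Medians of signal over a list go by summits and are given for every list. Among 39 activity-induced genes, which respond to neuronal firing, 20 (51.3%) had an upstream site and 11 (28.2%) a downstream one, with median signals of 153 upstream and 233 downstream. Sik1, a salt-inducible kinase, had the strongest upstream site, with signals of 358 in replicate 1 and 358 in replicate 2 at 269 bp and a match in gene direction. Egr1, a zinc-finger transcription factor, had the strongest downstream site, with 355 and 383 at 210 bp. Arc, which encodes a regulator of AMPA receptor traffic, had no site.

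Of 24 glutamate receptor genes 11 (45.8%) had an upstream and 6 (25%) a downstream site, with median signals of 395 upstream and 282 downstream. The strongest upstream site was that of Grin2b, an NMDA receptor subunit, with signals of 287 and 286 at 210 bp, and the strongest downstream site was that of Grm4 above. Gria2, an AMPA receptor subunit, had none. Of 19 genes of GABA receptors and synthesis 7 had an upstream and 3 a downstream site, with medians of 268 upstream and 124 downstream. Gabbr1, a subunit of the GABA-B receptor, had the strongest on both sides, counted from different TSSs. It had 329 and 359 at 567 bp upstream and 137 and 113 at 492 bp downstream, and Abat had none.

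A list named for postsynaptic scaffolds and kinases also held the neurexin gene Nrxn2. Of its 28 genes 14 (50%) had an upstream and 7 (25%) a downstream site, with median signals of 403 upstream and 93.5 downstream. The strongest upstream site of that list was at Nrxn2, a neurexin, with 414 and 441 at 408 bp and an exact match in gene direction. Dlgap3, a scaffold protein, had the strongest downstream site with 98.4 and 116, and Cacng2 had none. Of 30 matched presynaptic release genes 9 (30%) had an upstream and 7 (23.3%) a downstream site, with medians of 122 upstream and 107 downstream. Syn3, a synapsin, had 397 and 424 at 27 bp upstream, Cplx2, a complexin, had 88.3 and 143 at 185 bp downstream, and Bsn had none.

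Transcription factors of the pallium and hippocampus had an upstream site in 11 of 32 genes (34.4%) and a downstream site in 8 (25%), with medians of 167 upstream and 193 downstream. Cux2, a homeobox factor, had 406 and 408 at 644 bp upstream and Zbtb20, a zinc-finger factor, had 167 and 201 at 426 bp downstream, while Emx1 had none. Of 23 circadian clock genes 8 (34.8%) had an upstream and 6 (26.1%) a downstream site, with medians of 188 upstream and 174 downstream. The strongest were at Ciart, a repressor of the clock, with 252 and 275 at 995 bp upstream, and at Bhlhe40, with 426 and 453 at 820 bp downstream. Arntl, the gene of the clock activator BMAL1, had none.

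Cohesin genes and those of related architectural proteins held an upstream site in 13 of 26 matched genes (50%) and a downstream site in 6 (23.1%), with 6 of 15 upstream summits and none of 7 downstream summits holding a match and medians of 272 upstream and 86.3 downstream. Stag1, a cohesin subunit, had signals of 399 in replicate 1 and 423 in replicate 2 at 30 bp upstream, over an exact match in gene direction. Pds5a, a regulator that binds cohesin, had 382 and 403 at 913 bp downstream. Cdca5, the gene of sororin, had no site other than a summit left out at a divergent pair.

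Genes of the cell's basic machinery were counted in the same way. Of 79 cytosolic ribosomal protein genes 35 (44.3%) had an upstream site and 11 (13.9%) a downstream one, with medians of 375 upstream and 108 downstream. Rpl26 had the strongest upstream site, with signals of 442 and 448 at 122 bp, Rpl38 the strongest downstream, with 305 and 341 at 532 bp, and Rpl10l had none. Of 78 mitochondrial ribosomal protein genes 25 (32.1%) had an upstream and 13 (16.7%) a downstream site, with medians of 159 upstream and 135 downstream, Mrpl17 at 417 and 450 the strongest upstream, Mrps16 the strongest downstream and Mrpl1 without a site.

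Respiratory complex I had an upstream site at 11 of 35 genes (31.4%) and a downstream site at 5 (14.3%), with median signals of 705 upstream and 88.5 downstream. Beside Ndufc1 upstream, Ndufv3 had its strongest downstream site, with 152 and 153, and Ndufa10 had none. Proteasome genes had an upstream site at 10 of 38 genes (26.3%) and a downstream one at 7 (18.4%), with medians of 501 upstream and 92.6 downstream. Psmd6 had 432 and 460 at 51 bp upstream, Psma6 had 135 and 176 at 48 bp downstream, and Psma2 had none other than a summit left out at a divergent pair. Mediator, the coactivator of RNA polymerase II, had sites at 8 of 28 genes on each side, with medians of 475 upstream and 134 downstream; Med4 had 426 and 454 upstream, Med11 had 340 and 358 downstream, and Med1 had none.

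Larger families were counted last. Of 358 genes with a Zfp symbol, mostly zinc-finger proteins, 96 (26.8%) had an upstream and 81 (22.6%) a downstream site, with medians of 161 upstream and 145 downstream. Zfp398 had the strongest upstream site, with 425 and 449 at 61 bp over a match in gene direction, Zfp786 the strongest downstream, and Zfp1 none. Solute carriers had sites upstream in 75 (23.2%) and downstream in 51 (15.8%) of 323 genes, with medians of 151 upstream and 129 downstream. Slc36a1 had 430 and 425 upstream, Slc6a21 had 362 and 402 downstream, and Slc10a1 had none.

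Olfactory receptor genes, which are silent in most tissues, had an upstream site at 10 (0.92%) and a downstream site at 12 (1.1%) of 1086 genes, with medians of 119 upstream and 138 downstream. Olfr557 had 360 and 401 at 327 bp upstream, Olfr556 had 336 and 349 at 633 bp downstream, and Olfr1 had none. The clustered protocadherins, cell-surface proteins whose promoters are chosen through CTCF loops, stood at the other end, with an upstream site at 51 of 57 genes (89.5%) and a downstream one at 11 (19.3%), with medians of 226 upstream and 192 downstream. None of their 51 upstream summits and 7 of their 11 downstream summits held a consensus match with at most 1 mismatch. Pcdhac1 had 436 and 423 at 71 bp upstream and Pcdhga12 had 170 and 206 at 313 bp downstream, and Pcdhb1 had none.

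The lists of glial markers were short. Of 16 astrocyte markers 2 (12.5%) had an upstream and 3 (18.8%) a downstream site, with medians of 177 upstream and 178 downstream. Apoe, a lipid carrier, had 86.2 and 93.0 at 27 bp upstream and Clu, which encodes clusterin, had 367 and 382 at 20 bp downstream, while Aldh1l1 had none. Of 16 matched oligodendrocyte lineage markers 3 (18.8%) had an upstream and 2 (12.5%) a downstream site, with medians of 351 upstream and 384 downstream. Myrf, the myelin transcription factor, had 408 and 402 at 95 bp upstream over a match in gene direction, Pdgfra, a growth-factor receptor of precursor cells, had 317 and 323 at 492 bp downstream over an exact match against it, and Cldn11 had none. Of 17 microglia markers 1 (5.88%) had an upstream and 1 (5.88%) a downstream site, with signals of 257 upstream and 182 downstream. C1qa of the complement system had 131 and 124 at 556 bp upstream, and Aif1 had none.

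**Figure D5:**
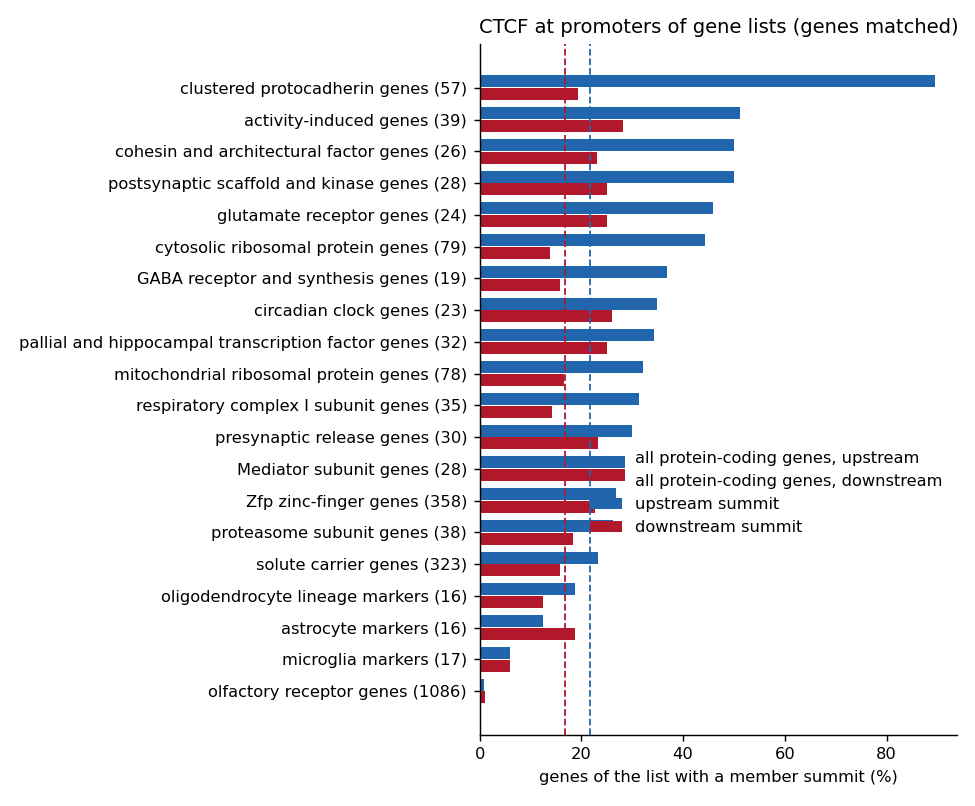
Share in % of the genes of each list (x axis; number of matched genes in brackets) with an upstream CTCF site (upper bar) and a downstream one (lower bar), with dashed lines at the shares of all autosomal protein-coding genes, 21.6% upstream and 16.7% downstream. The longest upstream bar is that of the clustered protocadherins at 89.5%, and the shortest that of the olfactory receptors at 0.92%.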

How the data were processed

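The authors deposited ranked and thresholded peak lists for each replicate, for pooled reads and between replicates; the build is mm10, per the labels, and no source used here names the aligner or the peak caller. The between-replicate thresholded list was the main list. Column 7, the signal, and column 5, the scaled IDR, are deposited as scores of unstated scale, with 540 at an IDR of 0.05; the ranked list gives IDR as −log10, as deposited by the authors. Signals of replicates 1 and 2 are those of the replicate peak assigned to a pooled peak, so summits of 1 pooled peak can share them. Of the replicate input peaks in that list, 78.4% and 80.3% were found with the same values in the ranked list of the same replicate and 0 in that of the other. At 252 of the 8831 sites a replicate signal exceeded the pooled one. These are called secondary summits below, though it was not checked that each is a second summit of a peak.

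TSSs were the starts of protein-coding transcripts in GENCODE M21 basic (39540 positions), and chromosome lengths matched GRCm38. The side came from the nearest TSS, with 0 counted as downstream. Motif search, composition (within 100 bp) and the tests used Python 3.11.15, numpy 2.4.6, pandas 2.3.3 and scipy 1.17.1; plots used matplotlib 3.10.9. The code was tested on simulated data. Coordinates are 1-based.

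The sites, the 20 gene lists and the tests were chosen with earlier results of these data known. Genes were named by rule: the 8 strongest per side, the 3 strongest within 50 bp of a TSS, the 3 with most summits, the strongest per side and the first unoccupied by alphabet in each list, the 3 largest and 3 smallest replicate ratios, the nearest to the limit of 1 kb, the weakest, and the 5 with the strongest pair of sites. A few named by this rule are not reported here. Windows around the first TSS of every gene and the split at 200 bp were added after the data had been seen. Alternatives were other peak lists, an IDR of 0.01, other windows, TSS choices, subsets of sites and motif settings.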

Additional observations from a re-analysis of the deposited data

How the results depend on the processing

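No paired analysis was possible because the replicates are not compared groups: the shared technical numbers mark libraries merged before the peaks were called. Leaving out a replicate gave 57.3% to 57.9% of summits upstream, a difference in motif share between upstream and downstream sites of 9.75 to 9.98 percentage points, a difference in motif direction of 9.08 to 10.7 points, a difference between promoter and other sites of -32.2 to -30.9 points, and 7773 to 7891 sites. The upstream share kept its direction in 18 of 19 alternatives. Quartiles of signal, added for it and for motif direction after the data had been seen, set its range, from 49.0% in the weakest, where it turned, and 50.9% in the second, both short of the threshold, to 71.8% in the strongest. The number of sites lay between 6518 (within 500 bp) and 8719. Of 21 alternatives for the motif share, upstream against downstream, the weakest quartile of signal alone did not pass the test, at 1.49 points with an adjusted p of 0.391; fewer sites enter each quartile, and the cause was not tested. Of 22 alternatives for motif direction, 19 lay between 8.07 and 19.7 points, while the lower quartiles of signal gave 1.72, -2.76 and -0.85 points, none past the test, so the call rests on the strongest quartile. The 16 for promoter against other sites lay between -35.7 and -6.85 points and all passed. Medians over autosomes had no test. The share in gene direction within 200 bp upstream was 75.5% with exact matches and 63.3% with 2 mismatches, and between 66.5% and 69.7% in the other 14 settings. Without the 252 secondary summits, an alternative chosen after seeing the data, 56.7% lay upstream and the medians of signal were 206 upstream and 138 downstream. Read depth is unknown, so no limit of detection per site can be given.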

Other observations

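The sites whose replicates differed most were weak summits on the pooled reads. The lowest ratios of replicate 2 over replicate 1 were at Slc39a13 (401 in replicate 1 and 8.30 in replicate 2, pooled signal 44.7), Calca (307 and 8.61, pooled 15.3) and Spag7 (250.3 and 9.09, pooled 14.4). The highest were at Capzb (12.6 and 389, pooled 20.03), Zfp568 (10.1 and 327, pooled 13.8) and Kcnj11 (10.5 and 417, pooled 42.3). In each of the 6 the higher replicate signal exceeded the pooled one. Among the 252 sites of that kind the SD of the log2 ratio was 1.95, against 0.26 at the other promoter sites.

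The strongest promoter sites did not always have a summit within 100 bp in the other list derived from the reads of both replicates. The main list also holds peaks on pooled reads, and the input sets of the other list match neither replicate. A summit of that list lay within 100 bp of 78.9% of upstream and 73.8% of downstream sites. In the third quartile of signal the shares were 100% upstream and 99.9% downstream, and in the strongest quartile 91.4% upstream and 96.1% downstream. Of the 8 strongest upstream sites 1 was found there, 5 in the list of replicate 1 and 8 in that of replicate 2, and of the 8 strongest downstream sites 2, 7 and 7. This was not tested further.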
